A study of Mus musculus with 15 samples.

Results

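The 41 genes described here build, use or recycle glutathione and thioredoxin, remove superoxide and peroxides, or govern that defence. They were chosen by name, as the rows of the deposited count table that carry the symbols of the set. All 41 were found among the 30386 genes of the table, 39 of them were among the 11718 genes with enough reads for testing, and those 39 had reads in all 15 libraries. Nqo1 and Hmox1, a pair of inducible NRF2 targets, had too few reads. The study asked whether vitamin B12 corrects brain changes in mice that lack 1 working copy of Tbx1, a transcription factor gene of the interval deleted in 22q11.2 deletion syndrome. There were 5 libraries of each of 3 groups. WT_PBS were wild types given saline (PBS), Het_PBS were Tbx1+/- heterozygotes given saline, and Het_B12 were Tbx1+/- heterozygotes given vitamin B12 in PBS at 20 mg/kg. All were injected intraperitoneally 2 times a week for 4 weeks. The labels give an age of 4 weeks, read here as the age at the start of the injections. Libraries are named by group and replicate number. Every Het_B12 animal carried the mutation, and wild types given vitamin B12 were not analysed here, so the vitamin was compared within the heterozygotes only. The sources used here do not give strain, sex or the kind of mutant allele.

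Glutathione is a small thiol tripeptide. It is made from glutamate, cysteine and glycine, with glutamate-cysteine ligase (Gclc with its modifier Gclm) as the rate-limiting enzyme. Glutathione peroxidases spend it on peroxides, glutathione transferases couple it to reactive compounds, and glutaredoxins use it to reduce mixed disulfides or to carry iron-sulfur clusters. Peroxiredoxins are a second, thioredoxin-fed route for peroxide removal. Many of these genes are targets of NRF2 (the product of Nfe2l2), which KEAP1 holds at low levels until oxidants or electrophiles release it and which then binds antioxidant response elements. In the brain much of this defence lies in astrocytes, which also export glutathione precursors to neurons. Vitamin B12 is the cofactor of methionine synthase, and homocysteine that is not remethylated can be turned into cysteine.

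Library totals ran from 1683258 to 2746122 counts, so that 3 reads correspond to 1.02 to 1.79 CPM (counts scaled to a common library size). On the main axis of variation over all genes tested, the Het_B12 libraries scored 19.14 to 32.75 and the saline libraries scored -10.17 or below, except WT_PBS 3 at 17.83. Het_PBS 5 stood apart on the second axis (score -43.55), and Het_PBS 1 and Het_PBS 3 had the highest summed levels of erythroid genes (2796 and 5000 CPM, against 490.8 to 1433 CPM elsewhere). Results are therefore also given below without these 4 libraries. Tbx1 itself had 3, 3 and 1 reads in WT_PBS, Het_PBS and Het_B12, too few to check the genotype. The share of reads on Gm42418, a gene that overlaps ribosomal RNA, was 10.6% to 14.9% in WT_PBS, 6.47% to 10.3% in Het_PBS and 3.31% to 6.28% in Het_B12, and its part in the results was not tested.

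In the brains of heterozygotes given vitamin B12, 6 of the 39 tested genes were lower than in heterozygotes given saline, and 0 were higher. They were the peroxiredoxins Prdx1 and Prdx6, the glutathione transferases Gstm1 and Gstm5, the glutaredoxin Glrx3 and the transcription factor gene Nfe2l2, with falls of 1.35-fold to 1.97-fold. A gene was called at an adjusted p under 0.05, and adjusted p-values are from edgeR's quasi-likelihood test with Benjamini-Hochberg adjustment over all 11718 genes. The 6 genes are 15.4% of the tested members, beside 3.79% of all genes called lower and 3.47% called higher in the same comparison (7.26% in either direction). Of the 39 genes, 30 lay below 0 and 9 above, with a median log2 fold change of -0.21 beside 0.012 over all genes tested. The summed level of the 41 genes was 3597 to 4190 CPM (median 3788) in Het_PBS and 2985 to 3333 CPM (median 3168) in Het_B12, and those ranges do not overlap. In WT_PBS it was 3185 to 3938 CPM (median 3593), which overlaps both. Without the 4 libraries named above, a choice made after seeing the data, 5 members were lower (Glrx3 was not) and 0 higher, and the median was -0.18. Over all genes, 430 were called in either direction in that fit, beside 851 with all 15 libraries.

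**Figure D1:**
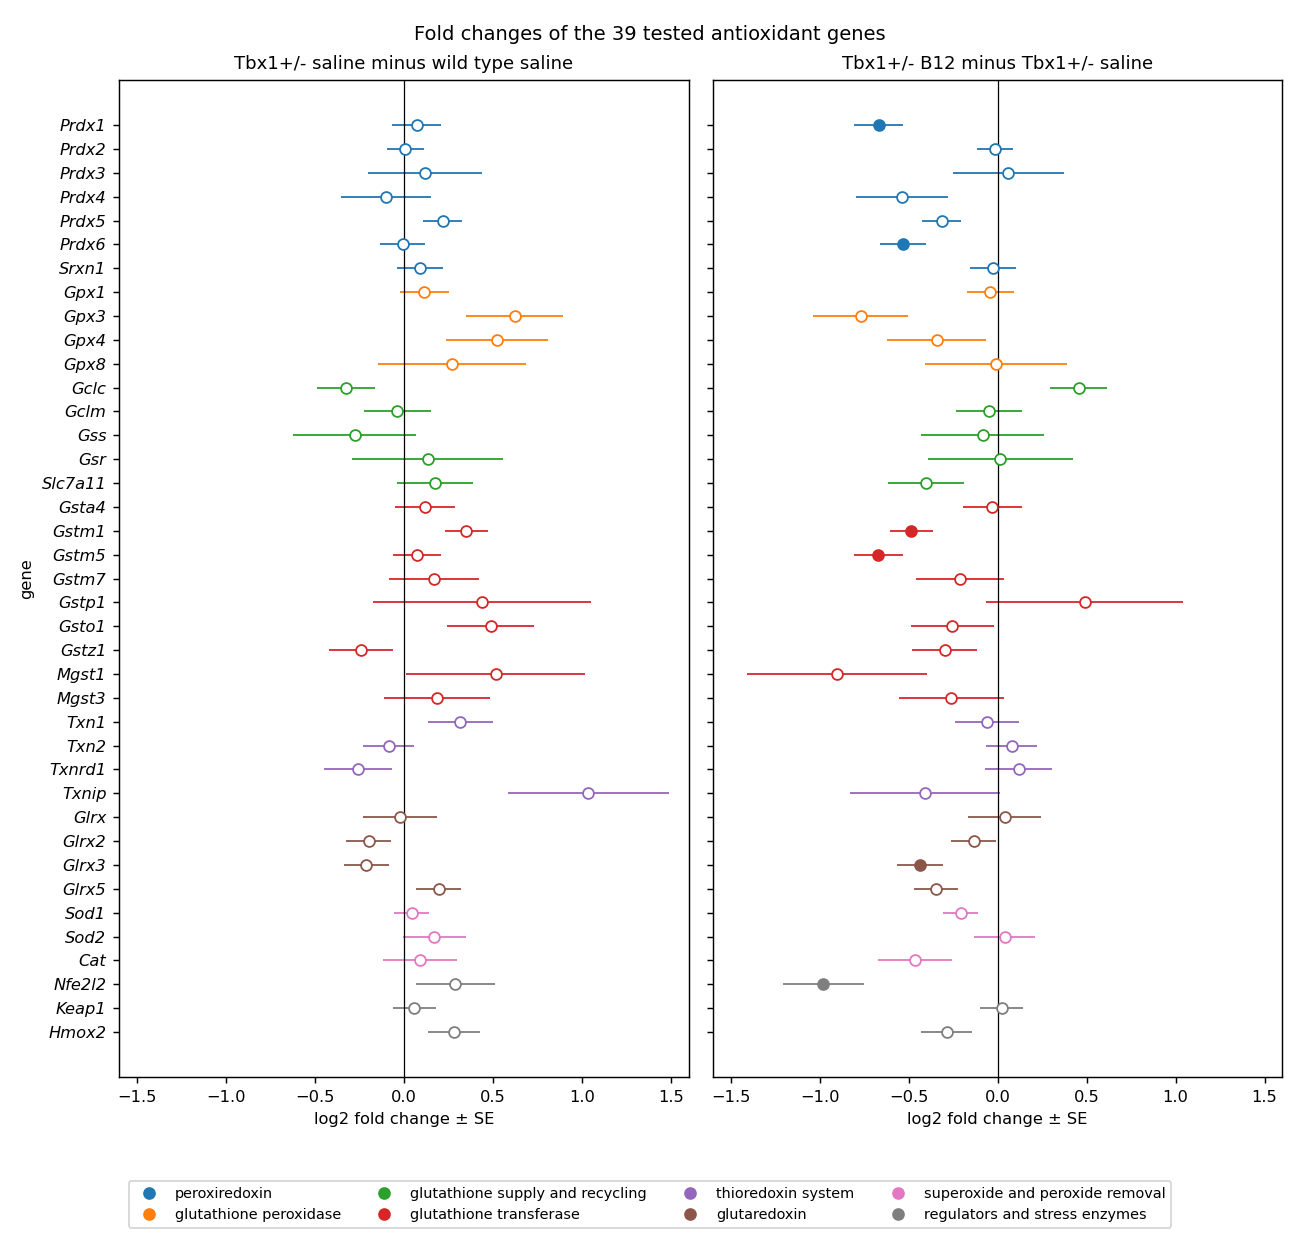
Log2 fold change with its standard error (horizontal axis) for the 39 tested genes, coloured by role; the left panel shows Het_PBS minus WT_PBS and the right panel Het_B12 minus Het_PBS, and filled points passed an adjusted p under 0.05. No point is filled on the left, and on the right the 6 filled points (Prdx1, Prdx6, Gstm1, Gstm5, Glrx3 and Nfe2l2) all lie below 0.

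The genes were measured in brain tissue, where several cell types contribute reads. In such bulk samples fewer cells of a type and less RNA per cell cannot be told apart. Markers of astrocytes moved in the same direction as the 6 genes: 11 of 15 fell and 0 rose in Het_B12 against Het_PBS (median log2 fold change -0.50), and 8 of 15 fell against WT_PBS. Their summed level was 7685 to 10530 CPM in WT_PBS, lowest in WT_PBS 3, then 9569 to 11640 CPM in Het_PBS and 6734 to 7511 CPM in Het_B12. Of 12 microglial markers 5 fell (median -0.69), with sums of 464 to 808.9 CPM in WT_PBS, 611.1 to 838.3 CPM in Het_PBS and 393.8 to 492.4 CPM in Het_B12. Endothelial markers moved the other way, with 6 of 10 tested higher (median 0.95). Their sums were 104.2 to 163.1 CPM in WT_PBS, 107.4 to 163.8 CPM in Het_PBS and 219 to 306 CPM in Het_B12. Of 13 neuronal markers 1 rose and 0 fell, and their sums overlapped in all groups (7822 to 9303 CPM over the 15 libraries). None of the markers of these 4 cell types was at 0 in any group. Erythroid genes (5 of 5 tested lower, median -1.71), leukocyte genes (3 of 3 tested lower) and meningeal genes (4 of 7 tested lower) also fell against Het_PBS. Of 10 oligodendrocyte markers 3 fell and 0 rose against Het_PBS (median -0.22), and 2 fell against WT_PBS, with sums of 4054 to 8769 CPM in WT_PBS, 5089 to 8790 CPM in Het_PBS and 4757 to 6642 CPM in Het_B12. Choroid plexus markers gave 0 calls of 7 tested. The part of these cell types in the antioxidant results was not tested.

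**Figure D2:**
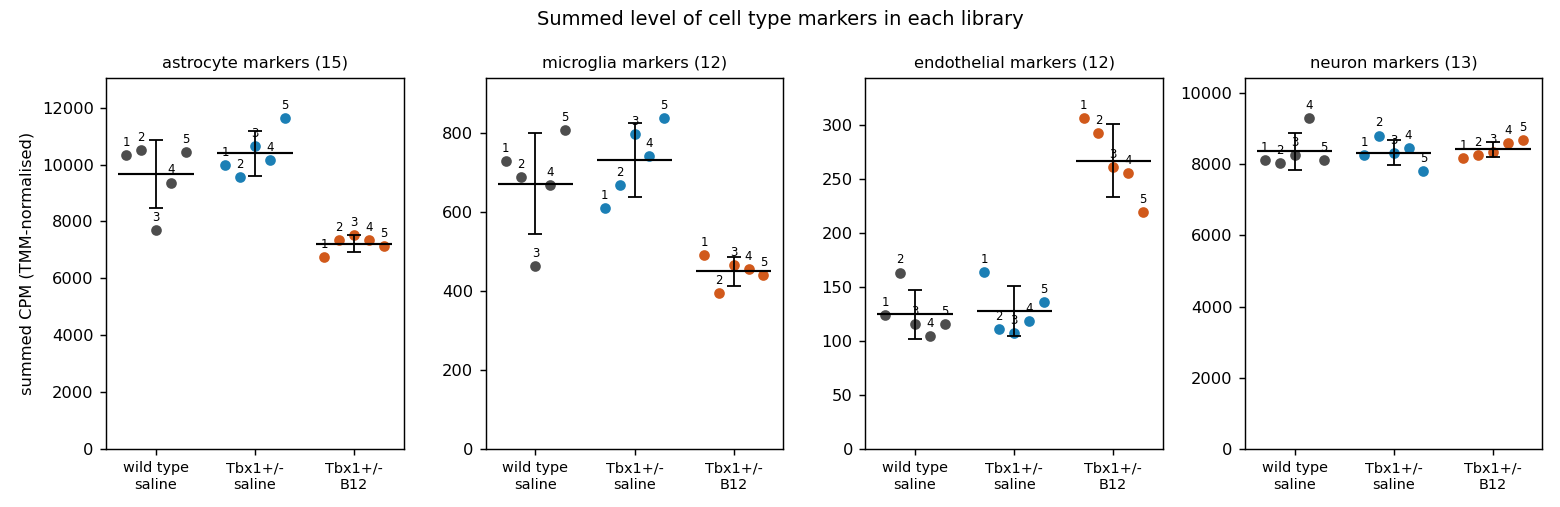
Summed CPM of astrocyte (15 genes), microglial (12), endothelial (12) and neuronal (13) markers, 1 panel each, with 1 point per library numbered by replicate, the line at the group mean and bars of 1 SD. Astrocyte and microglial sums are lower and endothelial sums higher in Het_B12 than in Het_PBS without overlap, and WT_PBS 3 has the lowest astrocyte and microglial sums of the wild types.

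Fold changes also varied with transcript length. Genes were ranked by their longest transcript. Over the shortest-transcript group of 5 equal groups, the median log2 fold change of Het_B12 against Het_PBS was -0.15, and over the longest-transcript group it was 0.12. For Het_PBS against WT_PBS these medians were 0.04 and -0.06, and for Het_B12 against WT_PBS -0.10 and 0.08. Relative to the mean of all libraries, WT_PBS 3 deviated by -0.06 and 0.06, within the range of the Het_B12 libraries. The cause of the trend was not tested. The members are short (median of the longest transcript 2294 bases, beside 3604 bases over all genes). With a length trend removed from each library, the members' median was -0.12, with 28 below 0 and 11 above, and 5 members were called lower (Gstm1 was not). Of the 11712 genes with a known length, 373 were called lower and 279 higher in that fit, with a median of -0.006.

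Nfe2l2 encodes NRF2 and lies on chromosome 2 (GRCm38, 75675513 to 75704641, minus strand). Its level was 23.8, 24.3, 16.4, 23.4 and 25.1 CPM in WT_PBS 1 to 5. In Het_PBS 1 to 5 it was 29.5, 31.1, 24.2, 25.2 and 28.7 CPM, and in Het_B12 1 to 5 it was 12.3, 6.09, 17.0, 19.1 and 15.7 CPM. All 5 Het_B12 libraries were below all 5 Het_PBS libraries, and only WT_PBS 3 among the wild types reached into the Het_B12 range. Nfe2l2 fell 1.97-fold against Het_PBS (log2 fold change -0.98 ± 0.23 SE, adjusted p = 0.00541), on 737 reads in all. Against WT_PBS the difference was -0.69 ± 0.23 and missed the threshold (adjusted p = 0.0609). Without WT_PBS 3 it was -0.78 and passed (adjusted p = 0.0267). Keap1, whose product marks NRF2 for degradation, did not pass in any comparison. It measured 124, 101, 129, 124 and 121 CPM in WT_PBS 1 to 5, then 131, 116, 143, 119.8 and 114 CPM in Het_PBS and 132, 104, 111, 144 and 143 CPM in Het_B12. The groups overlapped, and the log2 difference between Het_B12 and Het_PBS was 0.02 ± 0.12 (adjusted p = 0.946).

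A pair of inducible NRF2 targets, Nqo1 and Hmox1, had few reads. Nqo1, a quinone reductase, had 54, 35 and 25 reads in all in WT_PBS, Het_PBS and Het_B12, with 5 to 17, 0 to 11 and 2 to 8 reads per library. Hmox1, the inducible heme oxygenase, had 21, 7 and 9 reads, in 4, 3 and 2 of 5 libraries. In CPM all Het_B12 libraries of Nqo1 (0.68 to 2.79 CPM) lay below all its WT_PBS libraries (2.89 to 7.10 CPM), at levels of few reads. With no filter on low counts both were tested and neither passed in any comparison (adjusted p from 0.172 to 0.754 for Nqo1 and from 0.435 to 1 for Hmox1). In that fit Nqo1 differed from WT_PBS by -1.37 ± 0.58 in Het_B12. Over the 14 alternatives that tested Nqo1, adjusted p for that comparison ran from 0.0708 to 0.236. Hmox2, the constitutive heme oxygenase, averaged 91.45, 111.2 and 91.28 CPM in WT_PBS, Het_PBS and Het_B12 and did not pass in any comparison (Het_B12 against Het_PBS -0.285 ± 0.14, adjusted p = 0.241).

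The letters of the antioxidant response element core, TGACNNNGC on either strand, were looked for in RefSeq promoter windows of GRCm38.p6 that run from 250 bases before to 50 bases after each transcription start. A window was found for 36 of the 41 genes. The core was present in 9 of those 36 genes (25.0%), beside 13.99% of the 27025 genes of the promoter table, and in 9 of 51 member windows (17.65%), beside 12.39% of 32851 windows. The 9 genes were Gclm, Gstm5, Gstm7, Mgst1, Nfe2l2, Prdx1, Sod1, Srxn1 and Txnrd1. Stretches of 100 bases are shown for the 3 genes that fell and hold the core, and for Gclm, which holds it and did not pass. They are written 5′ to 3′ on the gene's strand with the core in capitals. Prdx1 is at chr4:116685421-116685520 (plus strand), with the core on the opposite strand starting 133 bases before the start site. Gstm5 is at chr3:107895754-107895853 (plus), with the core on the gene's strand 42 bases before the start. Nfe2l2 is at chr2:75704814-75704913 (minus), with the core on the gene's strand 240 bases before the start. Gclm is at chr3:122245378-122245477 (plus), with the core on the opposite strand 134 bases before the start.
Prdx1: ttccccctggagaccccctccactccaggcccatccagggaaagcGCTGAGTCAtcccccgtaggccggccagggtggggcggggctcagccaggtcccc
Gstm5: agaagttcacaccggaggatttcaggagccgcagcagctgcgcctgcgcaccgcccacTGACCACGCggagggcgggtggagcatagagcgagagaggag
Nfe2l2: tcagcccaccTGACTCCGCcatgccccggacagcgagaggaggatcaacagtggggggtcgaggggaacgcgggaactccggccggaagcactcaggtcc
Gclm: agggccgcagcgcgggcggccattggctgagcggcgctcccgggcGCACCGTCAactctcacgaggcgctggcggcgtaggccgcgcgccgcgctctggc
Among these cores that of Prdx1 also holds TGAGTCA, the letters of an AP-1 site. TGACTCA or TGAGTCA, on either strand, occurs in 5.2% of all windows. Gstm1 and Glrx3 fell and hold no core in these windows, and Prdx6 had no window. Gclm, Gstm7, Mgst1, Sod1, Srxn1 and Txnrd1 hold one and did not pass in any comparison. A match of letters is a description of the sequence and not a site of binding.

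Peroxiredoxins reduce hydrogen peroxide and lipid peroxides at a reactive cysteine. Of the 6 measured, and sulfiredoxin (Srxn1), which repairs them after overoxidation, 2 of 7 fell in Het_B12 against Het_PBS (median log2 fold change -0.315). Prdx1, a cytosolic peroxiredoxin on chromosome 4 (GRCm38, 116685544 to 116700822, plus strand), stood at 214, 231, 133, 128 and 211 CPM in WT_PBS 1 to 5. It was at 202, 155, 203, 209 and 197 CPM in Het_PBS and at 131, 128, 132, 109.6 and 107 CPM in Het_B12. Every Het_B12 library was below every Het_PBS library, while WT_PBS 3 and WT_PBS 4 lay near the top of the Het_B12 range. The fall was 1.59-fold against Het_PBS (-0.67 ± 0.14, adjusted p = 0.00175) and 1.51-fold against WT_PBS (-0.60 ± 0.14, adjusted p = 0.00567). The annotation holds a pair of other genes, Gm21399 and Gm7204, with nearly the same 3′ end as Prdx1, and both had 0 reads. That does not tell whether reads shared with Prdx1 were lost.

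Prdx6 has a single reactive cysteine, is recycled with glutathione rather than thioredoxin, and in brain is known mainly from astrocytes. It lies on chromosome 1 (161240112 to 161251219, minus strand). Its level was 342, 310.0, 206, 321 and 430.4 CPM in WT_PBS 1 to 5, 280.3, 328, 310.2, 339 and 347 CPM in Het_PBS, and 246, 187, 203, 233 and 241 CPM in Het_B12. All Het_B12 libraries were below all Het_PBS libraries, and of the wild types WT_PBS 3 lay within the Het_B12 range. Prdx6 fell 1.44-fold against Het_PBS (-0.53 ± 0.13, adjusted p = 0.00772) and 1.45-fold against WT_PBS (-0.54 ± 0.13, adjusted p = 0.00702). The second call was lost when WT_PBS 5, the highest library, was left out (-0.41, adjusted p = 0.0554).

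Prdx2, a cytosolic peroxiredoxin known mainly from neurons, was singled out after its values were seen because it was so even. Its libraries ran from 245 to 292 CPM in WT_PBS, from 258 to 295 CPM in Het_PBS and from 239 to 314 CPM in Het_B12. The coefficient of variation was 6.91%, 5.1% and 10%, and the log2 difference between Het_B12 and Het_PBS was -0.015 ± 0.10 (adjusted p = 0.96). Prdx5, found in mitochondria and peroxisomes, averaged 269.5, 313.2 and 251.6 CPM and missed the threshold (-0.315 ± 0.11, adjusted p = 0.0703). Prdx4 of the endoplasmic reticulum averaged 16.13, 15.26 and 10.43 CPM (-0.535 ± 0.26, adjusted p = 0.219). Prdx3 of mitochondria and Srxn1 gave log2 differences of 0.06 and -0.02, and neither passed.

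**Figure D3:**
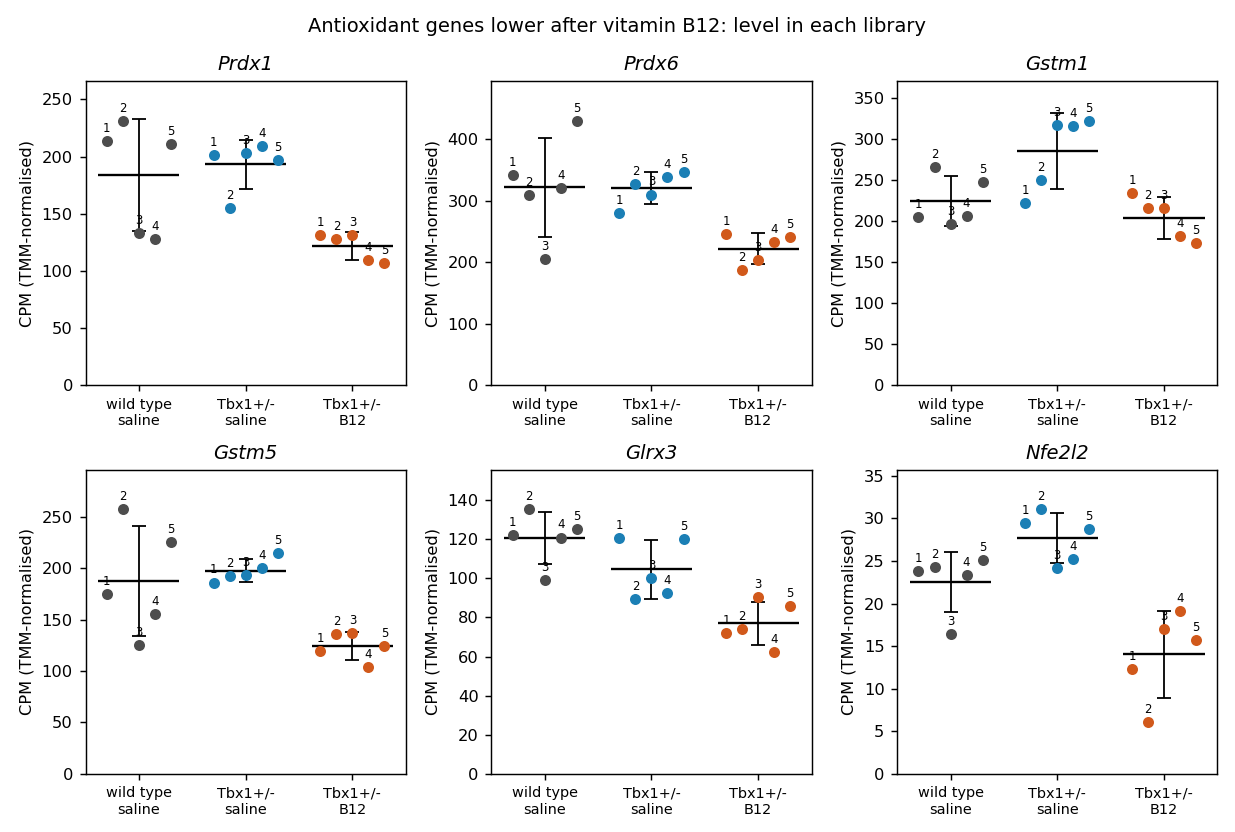
CPM in each library of the 6 genes lower in Het_B12 than in Het_PBS, 1 panel per gene, with points numbered by replicate, the line at the group mean and bars of 1 SD. In 4 panels (Prdx1, Prdx6, Gstm5 and Nfe2l2) all Het_B12 points lie below all Het_PBS points, and in the panels of Gstm1 and Glrx3 these groups overlap.

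Those 4 genes without overlap are 10.3% of the tested members, beside 4.07% of all genes. In the opposite direction 1 member (2.56%, beside 3.75% of all genes) had all Het_B12 libraries above all Het_PBS libraries, and it was Gclc.

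Glutathione transferases were the other class with more than 1 fall: 2 of 9 fell in Het_B12 against Het_PBS, with a class median of -0.26. Gstm5, a mu-class transferase on chromosome 3 (GRCm38, 107895821 to 107898686, plus strand), was at 175, 257, 125, 156 and 226 CPM in WT_PBS 1 to 5. It was at 186, 192, 193, 201 and 215 CPM in Het_PBS and at 119, 136, 137, 104 and 124 CPM in Het_B12. The Het_PBS libraries were closely grouped and all above the Het_B12 libraries, and WT_PBS 3 fell within the Het_B12 range. Gstm5 fell 1.59-fold against Het_PBS (-0.67 ± 0.14, adjusted p = 0.00155) and 1.51-fold against WT_PBS (-0.60 ± 0.14, adjusted p = 0.00504). A gene on the opposite strand, 4933431E20Rik, overlaps Gstm5 and averaged 75.13, 74.36 and 71.49 CPM in WT_PBS, Het_PBS and Het_B12, and without a stated strand setting reads of the pair cannot be told apart.

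Gstm1, a mu-class transferase on the same chromosome (108012255 to 108017973, minus strand), was at 206, 266, 197, 206 and 247 CPM in WT_PBS 1 to 5. It was at 222, 250.4, 317, 316 and 323 CPM in Het_PBS and at 234, 216, 216, 182 and 173 CPM in Het_B12. Het_PBS 3, 4 and 5 were above every other library, whereas Het_PBS 1 lay within the Het_B12 range. Gstm1 fell 1.40-fold against Het_PBS (-0.485 ± 0.12, adjusted p = 0.00897) but not against WT_PBS (-0.14 ± 0.12, adjusted p = 0.553). With the length trend removed the first difference was -0.32 and did not pass (adjusted p = 0.0817). Mu-class transferases resemble each other, and the sources used here do not say how reads that map to several genes were treated.

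The other 7 transferases did not pass in any comparison. Their log2 differences between Het_B12 and Het_PBS ran from -0.90 (Mgst1, a microsomal transferase) to 0.49 (Gstp1, the pi-class enzyme). Gstz1, which also acts in tyrosine breakdown, averaged 34.36, 29.14 and 23.81 CPM, and its Het_B12 libraries (19.5 to 27.4 CPM) were all below its WT_PBS libraries (28.9 to 43.0 CPM). That difference, named after its values were seen, missed the threshold (-0.54 ± 0.18, adjusted p = 0.0609).

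Of the 4 glutaredoxins 1 fell (class median -0.24). Glrx3, a protein with repeated glutaredoxin domains that binds iron-sulfur clusters, lies on chromosome 7 (137437614 to 137468594, plus strand). Its level was 122, 135, 99.3, 121 and 125 CPM in WT_PBS 1 to 5, 121, 89.2, 100.1, 92.5 and 120.2 CPM in Het_PBS, and 71.8, 74.2, 90.3, 62.4 and 85.8 CPM in Het_B12. The Het_B12 libraries were all below the WT_PBS libraries, and Het_B12 3 lay above Het_PBS 2. Glrx3 fell 1.57-fold against WT_PBS (-0.65 ± 0.13, adjusted p = 0.00132) and 1.35-fold against Het_PBS (-0.44 ± 0.13, adjusted p = 0.0319). The second call is the least firm of the 6: it was lost when Het_PBS 1, Het_PBS 5, Het_B12 1, Het_B12 2 or Het_B12 4 was left out (adjusted p = 0.095, 0.0814, 0.0799, 0.0655 and 0.103). Without WT_PBS 3, Het_PBS 1, Het_PBS 3 and Het_PBS 5 the difference was -0.25 (adjusted p = 0.442), smaller by more than 1.5 times. Mitochondrial Glrx5, which serves iron-sulfur cluster assembly, averaged 94.51, 108.1 and 85.07 CPM (-0.35 ± 0.12, adjusted p = 0.0833), and mitochondrial Glrx2 averaged 98.84, 86.12 and 78.43 CPM. Cytosolic Glrx stayed at 22.92, 22.54 and 23.19 CPM.

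Genes of glutathione supply gave 0 calls of 5 in any comparison, with a class median of -0.05 for Het_B12 against Het_PBS. The modifier subunit Gclm was at 58.3, 38.8, 28.6, 62.1 and 49.3 CPM in WT_PBS 1 to 5, 54.3, 39.02, 49.2, 36.3 and 56.2 CPM in Het_PBS, and 29.1, 58.4, 51.6, 42.5 and 43.2 CPM in Het_B12. The groups overlapped throughout (-0.05 ± 0.19, adjusted p = 0.92). The catalytic subunit Gclc was at 33.7, 38.8, 37.98, 48.4 and 45.5 CPM in WT_PBS, 28.1, 35.0, 35.8, 39.2 and 23.9 CPM in Het_PBS and 44.1, 40.9, 44.8, 47.3 and 47.1 CPM in Het_B12. Its Het_B12 libraries were all above its Het_PBS libraries and lay within the WT_PBS range. The difference from Het_PBS missed the threshold (0.46 ± 0.16, adjusted p = 0.0745) and passed when only genes with a mean count of at least 50 were tested (0.49, adjusted p = 0.0373). Glutathione synthetase (Gss) and glutathione reductase (Gsr) averaged under 10 CPM in each group, and the cystine importer Slc7a11 averaged 27.65, 31.36 and 23.73 CPM (-0.40 ± 0.21, adjusted p = 0.267).

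No glutathione peroxidase of 4 passed. Gpx1, the cytosolic selenoenzyme, was at 88.3, 89.1, 78.3, 70.0 and 78.1 CPM in WT_PBS 1 to 5, 86.6, 62.5, 103, 90.0 and 95.7 CPM in Het_PBS, and 77.7, 95.3, 89.3, 69.1 and 92.8 CPM in Het_B12. These ranges overlap, and Het_B12 differed from Het_PBS by -0.04 ± 0.13 (adjusted p = 0.906). Gpx3, the secreted plasma form, averaged 20.99, 32.82 and 19.29 CPM, with Het_PBS 3 alone at 63.0 CPM and the other 14 libraries between 11.5 and 32.6 CPM. Its difference between Het_B12 and Het_PBS was -0.77 ± 0.27 (adjusted p = 0.072). Gpx4, which reduces lipid peroxides in membranes, varied within every group, from 10.8 to 35.9 CPM in WT_PBS, 23.3 to 34.1 CPM in Het_PBS and 11.9 to 46.6 CPM in Het_B12.

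The thioredoxin system gave 0 calls of 4 in any comparison and a class median of 0.011 for Het_B12 against Het_PBS. Mitochondrial Txn2 was at 79.7, 97.8, 101, 84.7 and 95.7 CPM in WT_PBS 1 to 5, 84.2, 89.2, 105, 98.3 and 52.0 CPM in Het_PBS, and 85.9, 77.8, 100.5, 83.8 and 107 CPM in Het_B12. Apart from the low Het_PBS 5 the libraries of all groups share a range, and the difference was 0.08 ± 0.14 (adjusted p = 0.807). The end of Txn2 is nearly identical to sequence of 2 other genes that had reads, Adh5 and Itch, so its count is uncertain. Cytosolic thioredoxin (Txn1) averaged 43.67, 54.7 and 52.02 CPM, and its reductase Txnrd1 averaged 33.6, 27.96 and 30.53 CPM.

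Enzymes that remove superoxide and hydrogen peroxide directly gave 0 calls of 3. Sod1, the cytosolic copper-zinc superoxide dismutase, was at 777, 836, 703, 815 and 832 CPM in WT_PBS 1 to 5, 751, 805, 976, 816 and 733 CPM in Het_PBS, and 714, 663, 718, 695 and 748 CPM in Het_B12. The Het_B12 libraries lay at the low end of a shared range, and the difference from Het_PBS was -0.21 ± 0.10 (adjusted p = 0.205). Mitochondrial Sod2 averaged 42.12, 46.88 and 48.34 CPM, and catalase (Cat) averaged 27.51, 29.32 and 21.31 CPM (-0.465 ± 0.21, adjusted p = 0.181).

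**Figure D4:**
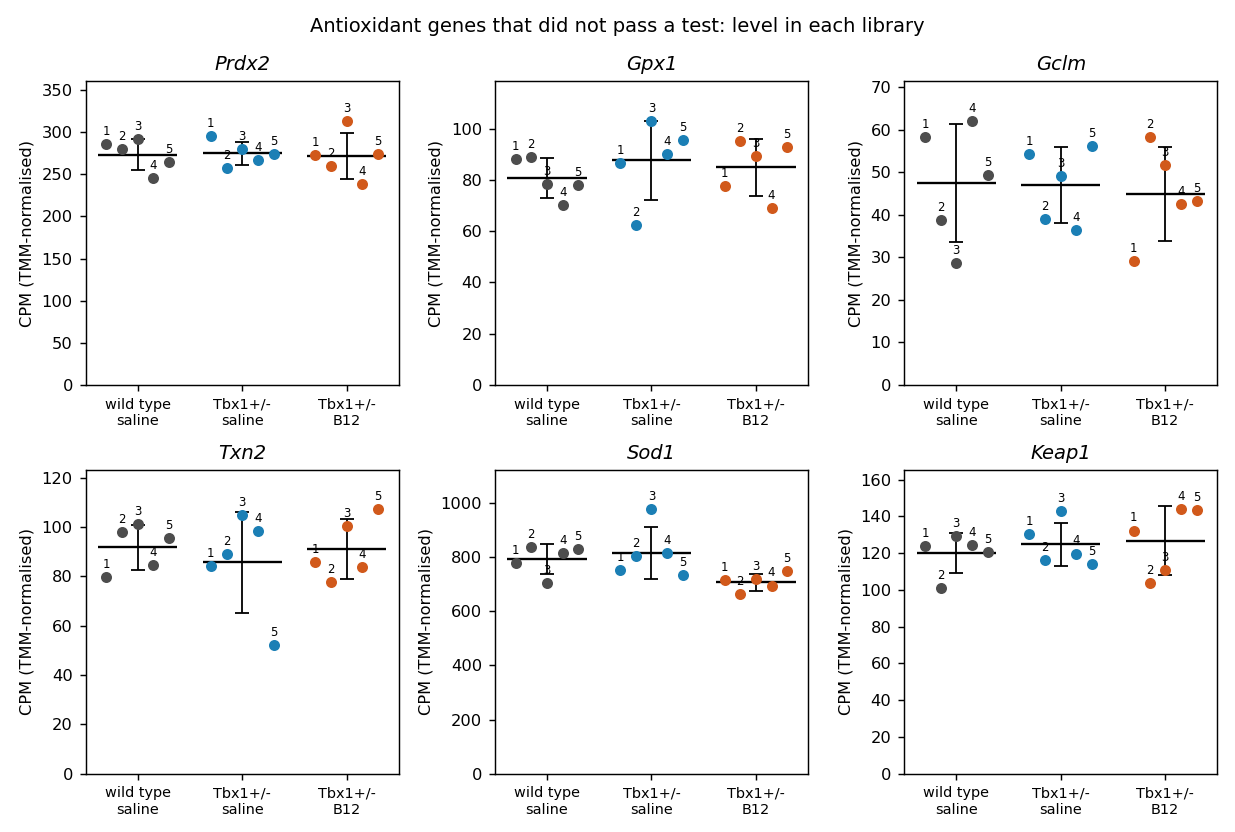
CPM in each library of Prdx2, Gpx1, Gclm, Txn2, Sod1 and Keap1, 1 panel per gene, with points numbered by replicate, the line at the group mean and bars of 1 SD. None of the 6 genes passed in any comparison, and the ranges of Het_PBS and Het_B12 overlap in each panel.

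Tbx1 heterozygosity under saline gave 0 calls among the 39 tested genes, as it did among all 11718 (0%), and no member had groups that did not overlap (beside 0.393% of all genes higher and 0.444% lower). The count was also 0 in DESeq2 and limma-voom. At an unadjusted p under 0.05 edgeR gave 3 members (7.69%), beside 879 of all genes (7.5%). They were Gstm1 (0.35 ± 0.12, adjusted p = 0.524), Gpx3 (0.62 ± 0.27, adjusted p = 0.608) and Txnip, the inhibitor of thioredoxin (1.03 ± 0.45, adjusted p = 0.608). Txnip averaged 4.737 ± 2.909 CPM (SD, n = 5) in WT_PBS and 9.711 ± 5.268 CPM in Het_PBS, where Het_PBS 5 reached 19.1 CPM. Of the 39 genes 28 lay above 0 and 11 below, with a median of 0.12 beside -0.007 over all genes. Without WT_PBS 3, Het_PBS 1, Het_PBS 3 and Het_PBS 5 that lean was gone, with 20 of 40 tested members above 0, 20 below and a median of -0.009.

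Against the saline wild types, heterozygotes given vitamin B12 had 4 members lower (10.3%, beside 4.11% of all genes called lower, 3.22% called higher and 7.33% in either direction) and 0 higher. The 4 were Prdx1, Prdx6, Gstm5 and Glrx3. This comparison shares its treated libraries with the one above. Of the 39 genes 24 lay below 0 and 15 above (median -0.08, beside 0.007 over all genes). With the length trend removed 20 lay below 0 and 19 above (median -0.02), and without WT_PBS 5 it was 20 and 19 (median -0.02). Without WT_PBS 3 it was 22 and 17 (median -0.10). Glrx3 and Gstz1 (5.13%, beside 2.94% of all genes) had all Het_B12 libraries below all WT_PBS libraries. None had all above (beside 2.44% of all genes). WT_PBS 3 was the lowest wild-type library for Prdx6, Gstm1, Gstm5, Glrx3 and Nfe2l2. Without it the differences of Prdx1, Prdx6, Gstm5 and Glrx3 from WT_PBS were -0.69, -0.66, -0.71 and -0.71, each larger than with it. A test of any difference among the 3 groups called the same 6 genes as Het_B12 against Het_PBS (15.4%, beside 7.75% of all genes), with adjusted p-values from 0.00186 for Gstm5 to 0.0164 for Gstm1. That test uses the same fit and libraries as the paired comparisons, so it is not separate evidence.

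**Figure D5:**
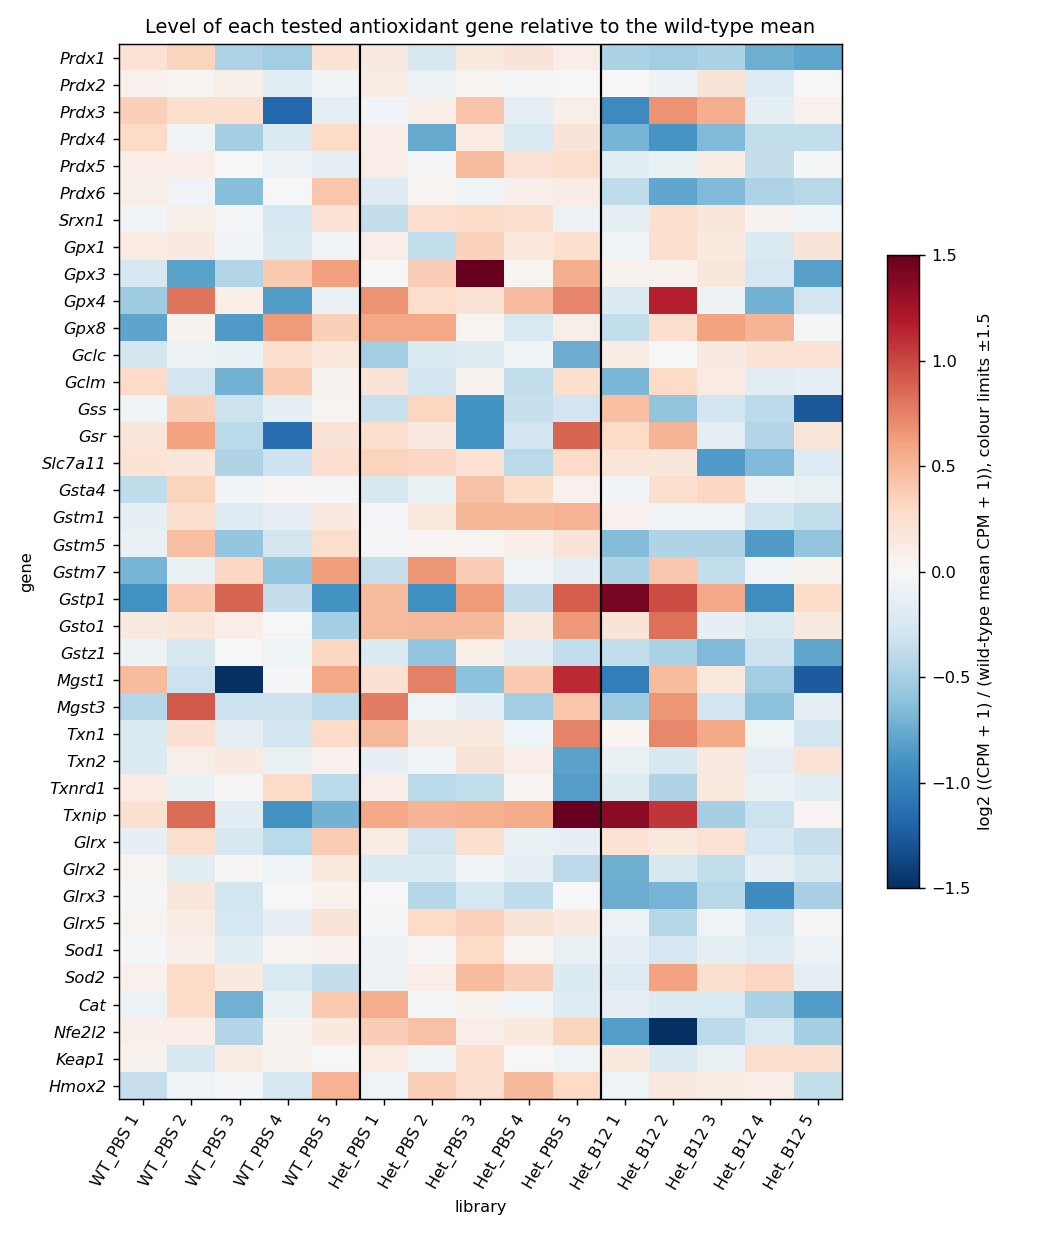
Colour gives log2 of (CPM + 1) over the wild-type mean (CPM + 1) for the 39 tested genes (rows, by role) in the 15 libraries (columns, by group), with the colour scale limited to 1.5 in either direction. Prdx1, Prdx6, Gstm5, Glrx3 and Nfe2l2 are below the wild-type mean in all 5 Het_B12 libraries, and WT_PBS 3 shares that colour for these genes. Sod1, Glrx2, Gstz1, Prdx4 and Cat, which did not pass in any comparison, are also below that mean in all 5 Het_B12 libraries.

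Other genes of the pathway were taken in 7 lists, given by their counts. In Het_B12 against Het_PBS, all 3 metallothioneins, cysteine-rich proteins that bind zinc and copper, fell. Mt1 fell by 0.89 ± 0.13 (adjusted p = 2.14e-05), Mt2 by 1.04 ± 0.16 (adjusted p = 4.08e-05) and Mt3 by 0.57 ± 0.15 (adjusted p = 0.0109) on the log2 scale. Mt1 and Mt3 were also lower than in WT_PBS (-0.545, adjusted p = 0.00505, and -0.565, adjusted p = 0.0129). Of 10 tested genes listed under cysteine supply and transsulfuration 3 fell and 0 rose: the glutamate transporters Slc1a2 (-0.45 ± 0.10, adjusted p = 0.00348) and Slc1a3 (-0.46 ± 0.12, adjusted p = 0.00999), and glutamine synthetase Glul (-0.50 ± 0.12, adjusted p = 0.00953). All 3 handle glutamate, also stand in the astrocyte list, and none of them is an enzyme of transsulfuration. The transsulfuration enzyme Cbs did not pass (-0.03 ± 0.24, adjusted p = 0.969). Of 18 genes for selenoproteins and their synthesis 2 fell and 0 rose: Selenop, which carries selenium (-0.49 ± 0.15, adjusted p = 0.0424), and Selenos of the endoplasmic reticulum (-0.45 ± 0.13, adjusted p = 0.0256).

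Among 18 other thiol reductases and repair enzymes 1 rose, the methionine sulfoxide reductase Msra (0.85 ± 0.22, adjusted p = 0.0103), and 0 fell. Other glutathione enzymes (17 tested), NADPH suppliers (13) and further regulators and targets of NRF2 (16) gave 0 calls in either direction against Het_PBS. Against WT_PBS 1 of the NADPH suppliers fell (Pgls of the pentose phosphate pathway, -0.79 ± 0.18, adjusted p = 0.00495), and 1 of the NRF2 list fell (the aldehyde dehydrogenase Aldh2, -0.49, adjusted p = 0.035). Selenow, Selenom and Selenos were lower than in WT_PBS, and no gene of these 7 lists passed in Het_PBS against WT_PBS.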

How the data were processed

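QuantSeq 3′ libraries, which read transcripts from the 3′ end, were made from mouse brain, called whole brain in one label and a hemisphere in another. The authors deposited raw read counts per gene, and those counts were used as deposited. STAR, HTSeq, edgeR and the build mm10 are named in the submitters' processing notes, and the sources used here do not give versions, annotation, strand setting or filters. Separate mice are not stated outright, and Het_PBS 5 and Het_B12 1 carry the same animal number. Their chi-square per degree of freedom, 10.28, lay within the 8.439 to 14.47 of the other 24 pairs of a Het_PBS and a Het_B12 library, which does not tell whether 1 mouse gave both. P-values thus measure the spread between these libraries.

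Groups and replicate numbers came from the titles. In R 4.3.3, genes were kept with filterByExpr and scaled by TMM in edgeR 4.0.16. A quasi-likelihood model with 1 mean per group was fitted to all 15 libraries (12 residual degrees of freedom), and glmQLFTest p-values were adjusted over 11718 genes. The test was tried on simulated counts. CPM are TMM-normalised, and ± after a log2 fold change is its standard error. Of the table's identifiers 30271 matched GENCODE M21 (GRCm38), which gave coordinates and transcript lengths. Promoters are from RefSeq (GRCm38.p6). The members and lists were chosen with earlier results of these data known. Named genes were members that passed, the most abundant member of each class, and Nfe2l2 and Keap1. Prdx2, Prdx4, Prdx5, Gclc, Gstz1, Gpx3, Gpx4, Txnip, Mgst3 and the other members given as means were named after their values were seen. Alternatives were DESeq2 1.42.0 (its size factors, and its Wald test), limma-voom (limma 3.58.1), other filters on low counts, only the 2 groups compared, a replicate block, a length offset and left-out libraries.

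Reads from near-identical genes can be split or lost: 10 members share at least 97% of at least 75 bases of their last 300 with another gene, and for 3 of them (Txn2, Glrx2 and Gstp1) the other gene had reads. For the rest (Prdx1, Prdx2, Gpx4, Gstm1, Glrx3, Sod1 and Sod2) no reads were counted on the other gene, which does not tell whether shared reads were lost. For 6 members (Prdx5, Gss, Gstm5, Gsto1, Gstz1 and Hmox2) a gene on the opposite strand overlaps with more than 10% as many reads, and with no strand setting stated their counts are uncertain. Protein sequences were not used here.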

Additional observations from a re-analysis of the deposited data

Results flagged for a closer look

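In 33 sets of 5 libraries (the 11 genes chosen by rule, in 3 groups), 2 held a library whose gap to its nearest neighbour exceeded Dixon's 95% critical value of 0.71 of the range. Chance gives about 1 in 20 such sets. Prdx1 in Het_PBS 2 was 155 CPM, with the nearest library at 197 CPM (0.768 of the range). Nfe2l2 in WT_PBS 3 was 16.4 CPM, with the nearest at 23.4 CPM (0.803 of the range).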

How the results depend on the processing

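Depth limits the set: 3 reads equal 1.02 to 1.79 CPM, and 6 of the tested members averaged under 10 CPM. Over 26 alternatives (15 that leave out 1 library and 11 others) the number of members called for Het_B12 against Het_PBS was 5 to 8 (5 to 7 with 1 library left out), against WT_PBS 3 to 6 (3 to 5), and for Het_PBS against WT_PBS 0. For any difference among the groups, run with 15 left-out libraries and 8 others, it was 5 to 7. Among 3002 recomputed gene values 0 calls reversed, 9 were lost and 15 gained, and 182 uncalled values changed sign without passing. The calls of Prdx1, Prdx6, Gstm5 and Nfe2l2 against Het_PBS passed in each alternative that tested them. The smallest difference was -0.60 for Prdx1, -0.47 for Prdx6, -0.46 for Gstm5 and -0.78 for Nfe2l2. Calls gained were Prdx5 in 4 fits, Gpx3 in 3 and Gclc in 1 against Het_PBS, and Nfe2l2 in 6 and Gstz1 in 1 against WT_PBS. Counts over all genes moved more, and the cause was not tested: Het_PBS against WT_PBS gave 0 genes, but 40 with no filter on low counts, 1 without WT_PBS 3 and Het_PBS 5 together, and 0 to 14 with 1 library left out. Het_B12 against Het_PBS gave 851 genes, 509 without Het_PBS 1 and Het_PBS 3 together, 430 without these, WT_PBS 3 and Het_PBS 5, and 549 to 1050 with 1 library left out, lowest without Het_B12 1. Het_B12 against WT_PBS gave 859 genes, 1390 without WT_PBS 3 and Het_PBS 5 together, 1384 without those 4 libraries, and 449 to 1268 with 1 left out, lowest without WT_PBS 5. Any difference gave 908 genes and 556 to 1283 with 1 left out. With DESeq2 size factors Het_B12 against Het_PBS gave 391 higher and 476 lower, and with the length offset 279 and 373.

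Same-numbered libraries did not deviate together (correlations of -0.093 to 0.106), which does not tell whether the numbers stand for a pairing. With the replicate number as a block 0, 6 and 4 members and 0, 830 and 800 genes were called in Het_PBS against WT_PBS, Het_B12 against Het_PBS and Het_B12 against WT_PBS, and 6 members and 875 genes for any difference.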

Other observations

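Gpx4, which protects membranes from lipid peroxidation, and Mgst3, a microsomal transferase and peroxidase, had the same 4 highest libraries, and these come from all 3 groups: WT_PBS 2, Het_PBS 1, Het_PBS 5 and Het_B12 2. Gpx4 was at 35.9, 32.8, 34.1 and 46.6 CPM there, and at 10.8 to 28.1 CPM in the other 11. Mgst3 was at 31.8, 28.5, 22.1 and 26.5 CPM there, and at 10.3 to 15.5 CPM in the other 11. The pattern was noticed in the data, and 51 of the 11718 tested genes (0.435%) have those 4 libraries highest. The summed level of 10 oligodendrocyte markers was also highest in these 4 (8769, 8790, 7315 and 6642 CPM), although no single one of the 10 genes has exactly these 4 highest. The part of oligodendrocyte content in the pattern was not tested.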
